A study of Homo sapiens with 20 samples.

Results

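ARH-77 is a B-lymphoblastoid cell line, and its bortezomib-resistant (BtzR) cells were compared here with its parental, wild-type (WT) cells by RNA-seq. The comparison was chosen by line and drug from the sample labels and rests on 4 of the 20 libraries of the series, 2 biological replicates in each group. The genes compared were those with a mean of at least 1 FPKM (fragments mapped to a gene, scaled for transcript length and for the fragments of the library) in the WT or the BtzR cells, which kept 11107 of the 18305 listed genes. The other 16 libraries came from myeloma cells (AMO1, L363, RPMI-8226), parental or resistant to bortezomib or carfilzomib, in a study of the myeloma cell surface. The same serum-supplemented RPMI-1640 medium was used for WT and BtzR cells, and bortezomib at 90 nM was added for the BtzR cells. Long-term selection and the drug in the medium therefore cannot be told apart. The sources used here do not say whether the BtzR cells were 1 clone or a population.

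Bortezomib is a reversible inhibitor of the proteasome, the protease complex that degrades ubiquitin-tagged proteins. The catalytic 20S core carries the active subunits PSMB5, PSMB6 and PSMB7, of which PSMB5, the chymotrypsin-like subunit, is the main target of the drug. The 19S regulatory particle recognises and unfolds substrates. Among the proteins that the proteasome removes is the inhibitor IkappaB-alpha, encoded by NFKBIA, whose removal frees the transcription factor NF-kappaB. Lymphoblastoid lines are B cells with an activated phenotype in which NF-kappaB target genes are typically expressed.

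The label was borne out by its markers. The B-cell surface gene MS4A1 (CD20) was at 57.67 and 63.01 FPKM in the WT and 75.78 and 78.86 FPKM in the BtzR libraries, and at no more than 0.07 FPKM in the WT libraries of the 3 myeloma lines. PAX5, the B-cell identity factor, was at 33.55 to 47.12 FPKM in the 4 ARH-77 libraries. SDC1 (CD138), the plasma-cell marker, was at 8.4 to 9.9 FPKM in ARH-77, against 54.85 to 3265.9 FPKM in the WT myeloma libraries. Of the 30 B-cell markers listed, 29 reached 1 FPKM in each ARH-77 library.

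The 2 WT libraries stood apart from each other. Their log2(FPKM + 1) values correlated across tested genes with r = 0.979, and 156 genes differed by more than 1 log2 unit between them. The 2 BtzR libraries correlated with r = 0.995, and 10 genes differed by that much. Several NF-kappaB target genes were among those that differed, being lower in WT replicate 2, and each result that rests on them is given below with and without the WT libraries.

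A gene counted as called when limma gave an adjusted p (Benjamini-Hochberg) under 0.05 and the groups differed by 1 log2 unit or more. The spread behind each standard error and p came from the replicates of all 20 libraries, so the myeloma lines enter it. A gene with steady replicates in myeloma can thus have a small standard error, and one with uneven replicates there a large one. In ARH-77 BtzR cells 119 genes were called higher (1.07% of those tested) and 78 lower (0.702%). The libraries of the groups did not overlap for any of these genes, where 16.9% of all tested genes had both BtzR libraries above both WT libraries and 29.3% had both below. The median log2-fold change over all tested genes was -0.07. Without WT replicate 1 the counts were 144 higher and 204 lower, and without WT replicate 2 they were 137 and 62. Without BtzR replicate 1 they were 57 and 41, and without BtzR replicate 2 they were 67 and 43. Of the genes called with all libraries, 65 of the 119 higher and 50 of the 78 lower genes were called without either WT library. Of the 54 called genes chosen for naming, AKR1C1, AKR1C3, CCL17, CD38, FCER2, FSCN1, NFKBIA, NKG7, SPRY4, TSPAN15 and XCL2 lost the call without WT replicate 2, and CCR9, CDKN2C and IL9R lost it without WT replicate 1. In a fit of the 4 ARH-77 libraries alone, 14 of the 54 were not called. Among them were CCL17, IL1R1, IL1R2 and ITGAL, with limma adjusted p of 0.0833, 0.0686, 0.106 and 0.0719.

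KCNMB1, which encodes a regulatory subunit of calcium-activated potassium channels, showed the largest rise. It was at 0.46 and 0.17 FPKM in the WT and 23.9 and 20.25 FPKM in the BtzR libraries, with n = 2 libraries a group. The log2-fold change was 4.14 ± 0.12 (SE from the fit of all 20 libraries, limma adjusted p = 1.11e-11). In the fit of the 4 ARH-77 libraries alone the limma adjusted p was 0.00207. PLD4, a lysosomal nuclease of immune cells, was at 1.5 and 1.8 FPKM in the WT and 12.7 and 18.91 FPKM in the BtzR libraries (log2-fold change 2.64 ± 0.40, limma adjusted p = 0.000604). In both genes the lowest BtzR library was many times above the highest WT library.

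SYNPO, FERMT2 and MYL9 were the next largest rises. SYNPO, which encodes the actin-associated protein synaptopodin, was at 0.83 and 1.5 FPKM in the WT and 11.18 and 10.39 FPKM in the BtzR libraries (2.46 ± 0.24 on the log2 scale, limma adjusted p = 1.18e-05). FERMT2, the integrin activator kindlin-2, was at 7.89 and 6.23 FPKM in the WT and 43.9 and 34.45 FPKM in the BtzR libraries (2.32 ± 0.15, limma adjusted p = 1.97e-07). MYL9, a regulatory light chain of myosin, was at 6.03 and 4.35 FPKM in the WT and 27.91 and 26.43 FPKM in the BtzR libraries (2.2 ± 0.16, limma adjusted p = 6.13e-07). For SYNPO, FERMT2 and MYL9 the largest gap between replicates of a group was 0.45, 0.34 and 0.39 on the log2 scale. Of the 31 tested members of the list of S100, annexin, galectin and cytoskeleton genes, MYL9 was the 1 called higher and none was called lower. Of all tested genes 1.07% were called higher and 0.702% lower. The 31 members had a median log2-fold change of 0.33, and 20 had both BtzR libraries above both WT libraries, beside 16.9% of all tested genes. In the other direction, the focal adhesion gene TES was among the largest falls.

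The other large rises were of ADAMDEC1, KHDRBS3, AIF1, JAKMIP2, IVL, FAM171A1 and MAGEB1. ADAMDEC1, a secreted metalloprotease of immune tissue, was at 6.62 and 6.68 FPKM in the WT and 37.12 and 27.77 FPKM in the BtzR libraries (2.11 ± 0.15, limma adjusted p = 4.5e-07). AIF1, an actin-binding protein typical of myeloid cells, was at 7.25 and 8.49 FPKM in the WT and 31.86 and 31.24 FPKM in the BtzR libraries (1.88 ± 0.13, limma adjusted p = 4.83e-07). The other 13 myeloid markers in the table summed to 9.07 and 8.69 FPKM in WT and to 10.7 and 9.11 FPKM in BtzR, and the defining markers CD14 and MPO stayed at or below 0.26 FPKM in all 4 libraries. MAGEB1, a cancer-testis antigen, was at 2.99 and 2.6 FPKM in the BtzR libraries and listed at 0 in both WT libraries.

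**Figure D1:**
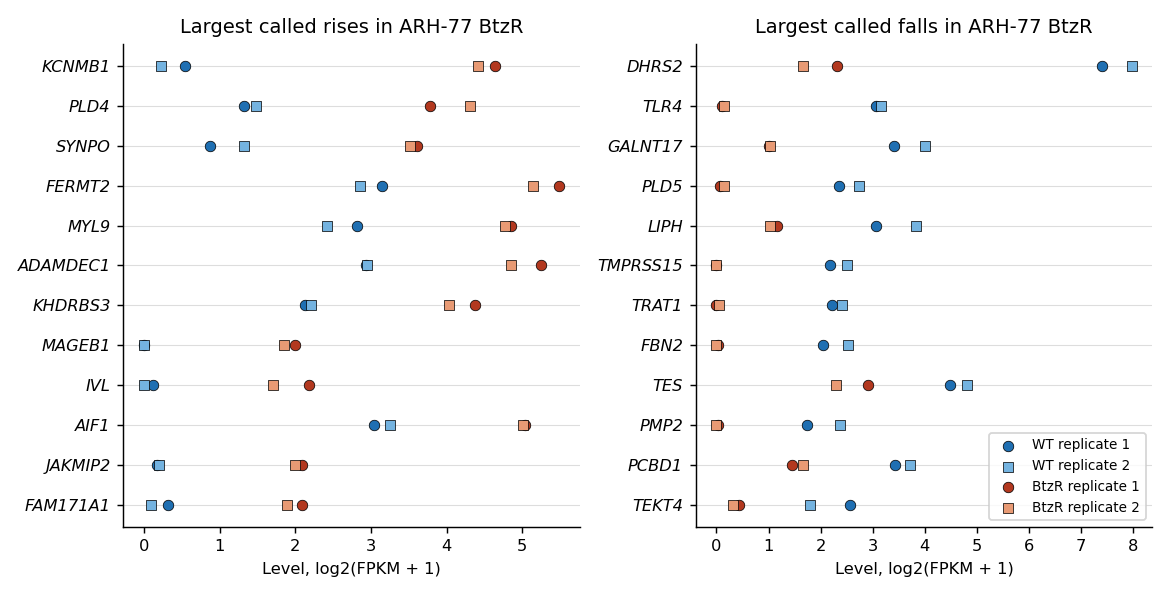
Levels of the 12 largest called rises (left) and the 12 largest called falls (right) in ARH-77, as log2(FPKM + 1) on the horizontal axis, with 1 point for each library. Blue points are the 2 WT libraries and red points the 2 BtzR libraries, and the groups do not overlap for any of the 24 genes.

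The largest fall was that of DHRS2, a mitochondrial short-chain dehydrogenase. It was at 167.32 and 250.1 FPKM in the WT and 3.94 and 2.18 FPKM in the BtzR libraries, a log2-fold change of -5.70 ± 0.48 (limma adjusted p = 2.02e-06). TLR4, the receptor for bacterial lipopolysaccharide, was at 7.31 and 7.99 FPKM in the WT and 0.08 and 0.1 FPKM in the BtzR libraries (-2.99 ± 0.13, limma adjusted p = 1.36e-09). Both genes were clearly present in the WT cells, and TLR4 was close to 0 in the BtzR cells.

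GALNT17, a glycosyltransferase of the O-glycosylation family, was at 9.55 and 15.07 FPKM in the WT and 1.02 and 1.05 FPKM in the BtzR libraries (-2.68 ± 0.20, limma adjusted p = 7.1e-07). PCBD1, which regenerates the tetrahydrobiopterin cofactor, was at 9.8 and 12.15 FPKM in the WT and 1.74 and 2.17 FPKM in the BtzR libraries (-2.02 ± 0.21, limma adjusted p = 1.64e-05). TES, a focal adhesion protein, was at 21.41 and 27.17 FPKM in the WT and 6.5 and 3.88 FPKM in the BtzR libraries (-2.05 ± 0.25, limma adjusted p = 0.000103). The lower WT library was above the higher BtzR library in each of them. PLD5, LIPH, TRAT1, FBN2, PMP2 and TEKT4 fell as well, by 1.80 to 2.43 on the log2 scale in the plot of the largest changes.

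Several genes of the WT cells were listed at 0 in both BtzR libraries. The protease gene TMPRSS15 was at 3.52 and 4.68 FPKM in WT. The zinc-finger gene ZNF518B was at 2.11 and 2.91 FPKM in WT. The olfactory receptor gene OR51B5 was at 1.58 and 1.78 FPKM in WT, and ANKRD20A2, which has close copies in the genome and whose value is therefore uncertain, was at 1.16 and 1.97 FPKM. MTPN, a widely expressed regulator of actin capping, was at 4.29 and 4.47 FPKM in the BtzR libraries and listed at 0 in both WT libraries. It was not called (limma adjusted p = 0.711 over all libraries). A value of 0 in these files may be a failed estimate. All 24 of the largest rises and falls were called without either WT library and in a fit of the 4 ARH-77 libraries alone.

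Genes of NF-kappaB and B-cell activation were described from a list of 39 genes, of which 37 were tested. Of these, 4 were called higher and none lower, beside 1.07% and 0.702% of all tested genes. The median log2-fold change was 0.21, beside -0.07 over all tested genes. CCL22, a chemokine for regulatory T cells made by activated B cells, was at 58.43 and 33.39 FPKM in the WT and 143.3 and 149.2 FPKM in the BtzR libraries (1.70 ± 0.21, limma adjusted p = 0.000102). CCL17, which signals through the same receptor, was at 6.05 and 2.64 FPKM in the WT and 11.47 and 13.44 FPKM in the BtzR libraries (1.41 ± 0.20, limma adjusted p = 0.00047). Both chemokines were lower in WT replicate 2 than in replicate 1, and every BtzR library was above both.

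NFKBIA was at 71.27 and 29.81 FPKM in the WT and 120.48 and 110.01 FPKM in the BtzR libraries (1.30 ± 0.31, limma adjusted p = 0.0196). FSCN1, the actin-bundling protein fascin of activated B cells, was at 57.64 and 25.55 FPKM in the WT and 101.6 and 106.97 FPKM in the BtzR libraries (1.42 ± 0.37, limma adjusted p = 0.0341). The difference between the WT libraries was large in both genes. Without WT replicate 2 the log2-fold changes of NFKBIA, FSCN1 and CCL17 were 0.68, 0.84 and 0.93, under the fold threshold, with limma adjusted p of 0.0112, 0.0233 and 3.83e-06. CCL22 was called without either WT library. Without WT replicate 1, 10 members of the list were called, and without WT replicate 2, 3 were.

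LTB, which encodes lymphotoxin beta, differed in the other direction. It was at 9.75 and 9.24 FPKM in the WT and 2.1 and 2.28 FPKM in the BtzR libraries. The groups were far apart and the replicates close together, but LTB was not called in the fit of all 20 libraries (log2-fold change -1.72 ± 0.91, limma adjusted p = 0.405), whereas the fit of the 4 ARH-77 libraries alone gave a limma adjusted p of 0.0085.

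**Figure D2:**
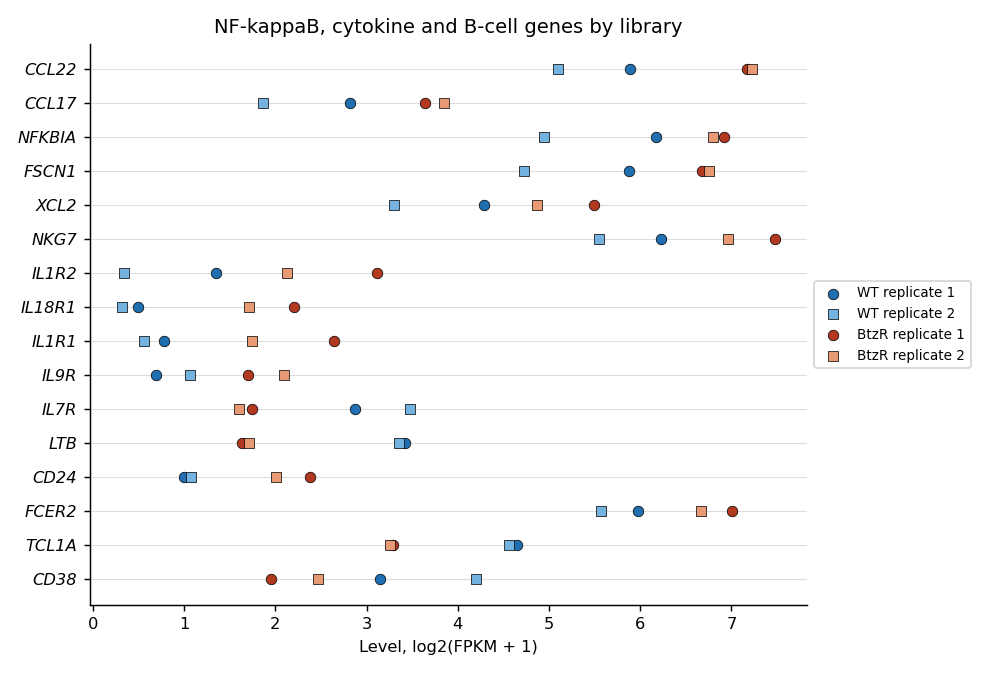
Levels of 16 NF-kappaB, cytokine, cytotoxic and B-cell genes in ARH-77, as log2(FPKM + 1), with 1 point for each of the 2 WT (blue) and 2 BtzR (red) libraries. WT replicate 2 (pale blue square) lies below WT replicate 1 for CCL22, CCL17, NFKBIA and FSCN1, and the BtzR libraries lie above both.

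The bases before the start site of NFKBIA and of other genes of this list are shown because several hold a match to the NF-kappaB motif. The 250 bases upstream of the start site, in RefSeq sequences of GRCh38.p14, were searched on both strands for GGG and TTTCC separated by any 2 bases. The sequences are given on the strand of the gene, with the match in capitals, and in NFKBIA and LTB the motif reads on the opposite strand.
NFKBIA (chr14:35404801-35404850, minus strand): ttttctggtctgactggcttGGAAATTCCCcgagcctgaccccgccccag
NFKBIZ (chr3:101827747-101827796, plus strand): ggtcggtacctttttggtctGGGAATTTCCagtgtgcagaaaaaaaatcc
LTB (chr6:31582482-31582531, minus strand): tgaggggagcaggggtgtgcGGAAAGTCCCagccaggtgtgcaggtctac

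The motif was in 8 of the 30 tested list members with a promoter sequence and in 1.73% of all 27305 promoters. The list was put together from genes of NF-kappaB and B-cell activation, so this share does not bear on the change in BtzR cells. Only 2 of the called members had a promoter sequence, and NFKBIA was the 1 of them that held the motif. NFKBIZ, an atypical IkappaB protein, had a log2-fold change of 0.89 and was not called, and LTB was lower in the BtzR libraries. The sequences shown are those of the members with the largest absolute changes among the 8. The others were NFKB1, REL, TNFAIP3, BIRC3 and TRAF3, with log2-fold changes of -0.16, 0.26, 0.66, 0.30 and 0.06. Among genes called higher, 5 of the 84 with a promoter sequence held the motif (5.95%), beside 1.52% of those called lower and 2.08% of all tested genes. This was 1 of 4 spellings of the motif, all tried after the values had been seen. GGGA and TTTCC with 1 base between them was in 6 list members, in 0.546% of all promoters and in 2 of the 84 genes called higher, and GGGA and TTCC with 2 bases between them was in 6, in 1.42% and in 3. The degenerate NF-kappaB consensus was in 10 list members, in 6.6% of all promoters, in 8 of the 84 and in both called members. GGGA and TTTCC was in 2.38% of genes called higher, none called lower and 0.597% of all tested genes. GGGA and TTCC was in 3.57% of genes called higher, 4.55% called lower and 1.49% of all tested genes. For the degenerate consensus these shares were 9.52%, 6.06% and 8.18%, so the contrast depended on the spelling. CCL17 and FSCN1 were not among the promoters searched.

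Of 40 tested genes for cytokines and their receptors, 5 were called higher and 1 lower, beside 1.07% and 0.702% of all tested genes, with a median log2-fold change of 0.05. The receptors for interleukin-1 rose together. IL1R2, the decoy receptor, was at 1.55 and 0.27 FPKM in the WT and 7.64 and 3.37 FPKM in the BtzR libraries (1.77 ± 0.27, limma adjusted p = 0.000756). IL1R1, the signalling receptor, was at 0.71 and 0.47 FPKM in the WT and 5.23 and 2.34 FPKM in the BtzR libraries (1.52 ± 0.20, limma adjusted p = 0.000188). BtzR replicate 1 was higher than BtzR replicate 2 in both, and both BtzR libraries were above both WT libraries.

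IL18R1, a receptor chain for interleukin-18, was at 0.41 and 0.25 FPKM in the WT and 3.62 and 2.28 FPKM in the BtzR libraries (1.55 ± 0.13, limma adjusted p = 2.47e-06). IL7R, the receptor for the lymphocyte growth factor interleukin-7, was the member called lower, at 6.35 and 10.1 FPKM in the WT and 2.36 and 2.04 FPKM in the BtzR libraries (-1.50 ± 0.15, limma adjusted p = 1.28e-05). The groups did not overlap for either receptor.

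Of 29 tested B-cell markers, 2 were called higher and 1 lower, beside 1.07% and 0.702% of all tested genes. CD24, a surface glycoprotein, was at 1 and 1.11 FPKM in the WT and 4.2 and 3.02 FPKM in the BtzR libraries (1.15 ± 0.22, limma adjusted p = 0.0037). FCER2 (CD23), an activation marker of B cells, was at 61.98 and 46.49 FPKM in the WT and 127.47 and 100.37 FPKM in the BtzR libraries (1.06 ± 0.22, limma adjusted p = 0.00786). TCL1A, a coactivator of AKT, was at 24.11 and 22.54 FPKM in the WT and 8.75 and 8.54 FPKM in the BtzR libraries (-1.33 ± 0.10, limma adjusted p = 8.85e-07). TCL1A had the tightest replicates of the 3. Without WT replicate 2 FCER2 was not called.

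CD38, a surface enzyme and antibody target in myeloma, was the 1 member called among 15 tested plasma-cell markers and among 23 tested surface immunotherapy targets. Of all tested genes 1.07% were called higher and 0.702% lower. CD38 was at 7.85 and 17.38 FPKM in the WT and 2.86 and 4.53 FPKM in the BtzR libraries (-1.46 ± 0.31, limma adjusted p = 0.00782). Its level in WT replicate 2 was above that in WT replicate 1, and both were above the BtzR libraries. Without WT replicate 2 its log2-fold change was -0.94, under the fold threshold.

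Of 37 tested genes of leukocyte adhesion and homing, 2 were called higher and 1 lower, beside the same shares of all tested genes. CD226, an adhesion receptor of lymphocytes, was at 1.03 and 1.77 FPKM in the WT and 5.32 and 5.31 FPKM in the BtzR libraries (1.41 ± 0.15, limma adjusted p = 2.21e-05). ITGAL, the alpha chain of the integrin LFA-1, was at 8.65 and 14.43 FPKM in the WT and 2.45 and 4.53 FPKM in the BtzR libraries (-1.48 ± 0.23, limma adjusted p = 0.000893). These 2 genes moved in opposite directions, with no overlap of the groups. NKG7, a granule protein of cytotoxic lymphocytes, was at 73.77 and 45.68 FPKM in the WT and 177.08 and 124.18 FPKM in the BtzR libraries (1.34 ± 0.23, limma adjusted p = 0.0019). It was not called without WT replicate 2 (log2-fold change 0.998, beside 1.68 without WT replicate 1) or in the fit of the 4 ARH-77 libraries (limma adjusted p = 0.0685). The other 22 T-cell and NK markers summed to 59.4 and 61.0 FPKM in WT and to 55.1 and 55.3 FPKM in BtzR. The T-cell receptor gene CD3G was at 0.44 to 0.58 FPKM in all 4 libraries, and CD3D was at 1.11 and 0.8 FPKM in the BtzR libraries and listed at 0 in both WT libraries.

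None of the 39 tested genes of the proteasome and its assembly and activator proteins was called, and 6 of them lay in runs of neighbouring genes that are described below. Over all 39 the median log2-fold change was -0.20. At an adjusted p under 0.05 and any fold, 4 of the 39 were higher and none lower, where 3.03% and 2.39% of all tested genes were. PSMB5 was at 71.58 and 43.22 FPKM in the WT and 100.22 and 88.8 FPKM in the BtzR libraries (0.75 ± 0.22, limma adjusted p = 0.0675). PSMB6, the caspase-like subunit, was at 67.55 and 56.43 FPKM in the WT and 103.18 and 111.84 FPKM in the BtzR libraries (0.79 ± 0.19, limma adjusted p = 0.0222). Both BtzR libraries were above both WT libraries for these 2 catalytic subunits. PSMB7, the trypsin-like subunit, was at 204.63 and 168.27 FPKM in the WT and 169.72 and 145.58 FPKM in the BtzR libraries (-0.24 ± 0.13, limma adjusted p = 0.449), and its groups overlapped.

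Of the structural subunits of the 20S core, PSMA3 was at 95.43 and 73.63 FPKM in the WT and 160.92 and 139.91 FPKM in the BtzR libraries (0.83 ± 0.17, limma adjusted p = 0.00646). PSMA6 was at 123.56 and 104.87 FPKM in the WT and 213.95 and 177.42 FPKM in the BtzR libraries (0.77 ± 0.13, limma adjusted p = 0.00185). PSMA1 was at 95.14 and 83.15 FPKM in the WT and 154.54 and 141.56 FPKM in the BtzR libraries (0.73 ± 0.12, limma adjusted p = 0.00123). The 3 genes were higher by less than the fold threshold, and the groups did not overlap. PSMC6, an ATPase of the 19S particle, was at 37.4 and 25.65 FPKM in the WT and 46.75 and 45.58 FPKM in the BtzR libraries (0.56 ± 0.18, limma adjusted p = 0.0936). The other 33 genes had log2-fold changes from -0.60 to 0.04 with a median of -0.22. Both BtzR libraries were below both WT libraries in 17 of the 33, beside 29.3% of all tested genes. The split into 6 and 33 genes uses these same values, since the runs were found on them, and so it is no separate evidence. The core of the antioxidant response element, TGAC and GC separated by any 3 bases, was in none of the 5 genes of the runs that had a promoter sequence, in 7 of all 34 proteasome genes that had one and in 11% of all promoters, a search also made after the values had been seen. PSMB5 depended on the WT library, with a log2-fold change of 1.11 without WT replicate 1 and 0.39 without WT replicate 2.

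**Figure D3:**
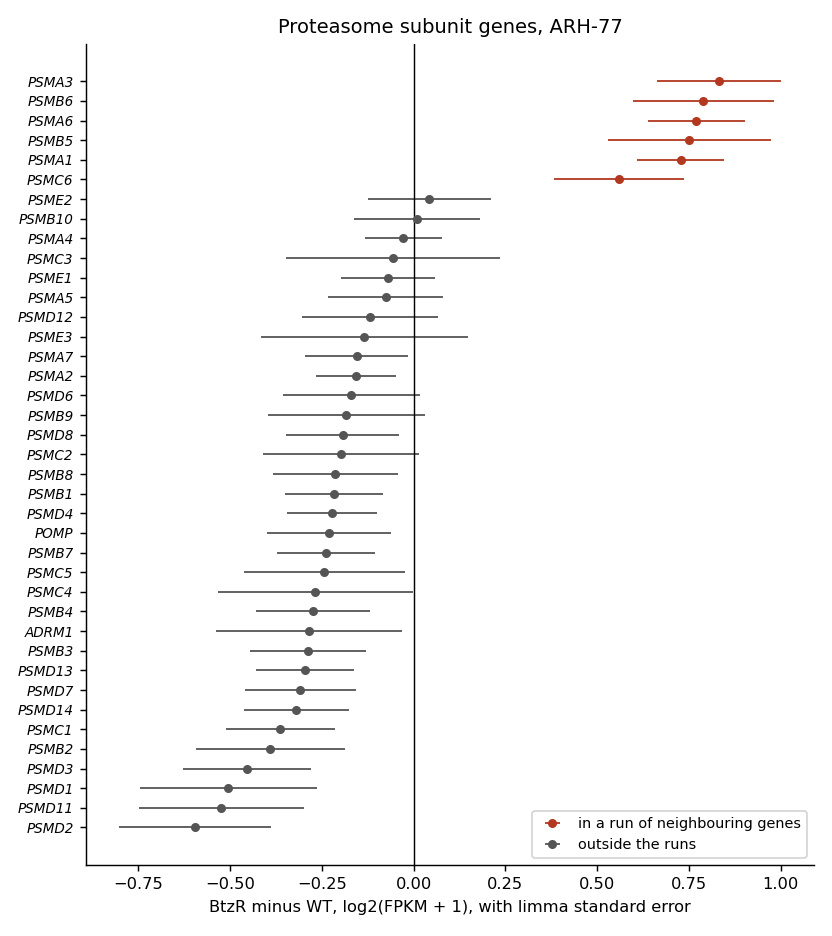
BtzR minus WT difference of 39 proteasome genes in ARH-77 on the log2(FPKM + 1) scale, with the standard error from limma as bars. The 6 genes in red lie in runs of neighbouring genes that were higher in BtzR, and the 33 genes in grey lie between -0.60 and 0.04.

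The 6 genes shared their place among neighbouring genes that were higher in the BtzR cells. This pattern was noticed in the data and then described, so no test is given. The tested genes with a mean of at least 5 FPKM over the 4 libraries, 8320 in all, were put in the order of the RefSeq annotation of GRCh38.p14. A run was a stretch of at least 10 genes over which the median log2-fold change in a window of 15 genes stayed at or above 0.3, or at or below -0.3. There were 6 runs of higher and 2 of lower expression, with 308 genes in all. Since the runs were found on these same values, counts of called or non-overlapping genes within them are no separate evidence. The genes outside them had a median of -0.08. DNA was not measured in these samples.

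The longest run was on chromosome 14, from G2E3 to EIF2S1. Its 95 genes had a median log2-fold change of 0.82, the lowest being 0.24, and both BtzR libraries were above both WT libraries in all 95. Of these genes, 24 were called higher. Of all tested genes, 16.9% had both BtzR libraries above both WT libraries and 1.07% were called higher. The median difference was 0.90 and 0.89 for BtzR replicates 1 and 2 against WT replicate 1, and 0.81 and 0.76 against WT replicate 2. The values were thus alike with either WT library, while the 15 genes on each side of the run had medians of -0.04 and -0.07. PSMA6, PSMC6 and PSMA3 lie in this run, as do NFKBIA and FERMT2. HIF1A, the hypoxia-inducible transcription factor, lies in it too, at 19.83 and 21.84 FPKM in the WT and 44.83 and 42.92 FPKM in the BtzR libraries (1.04 ± 0.15, limma adjusted p = 0.000358); it was chosen after its values were seen.

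Shorter runs held the other 3 subunits. The run from PRMT5 to PABPN1, also on chromosome 14, had 11 genes with a median of 0.69 and held PSMB5. BCL2L2, an anti-apoptotic member of the BCL2 family in that run, was at 4.28 and 6.06 FPKM in the WT and 10.89 and 11.13 FPKM in the BtzR libraries (0.98 ± 0.18, limma adjusted p = 0.00288), which was just under the fold threshold. Its reads may be shared with the overlapping readthrough gene BCL2L2-PABPN1. The run from AMPD3 to RPS13 on chromosome 11 had 14 genes with a median of 0.83 and held PSMA1. The run from PSMB6 to RABEP1 on chromosome 17 had 10 genes with a median of 0.85. All genes of these last 2 runs had both BtzR libraries above both WT libraries, beside 16.9% of all tested genes. The 2 short runs with PSMB5 and PSMB6 depended on the window, since neither was found with windows of 25 or 41 genes. The run with PSMA1 depended on it too, being found with windows of 25 genes but not of 41.

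On chromosome 5 the change was smaller and extended over more genes. The run from KIAA0141 to MXD3 had 92 genes with a median of 0.43. In 77 of them both BtzR libraries were above both WT libraries, beside 16.9% of all tested genes. The largest rise of the comparison, that of KCNMB1, lay in this run, as did that of SYNPO, both far above the median of their neighbours. CD74, the invariant chain of HLA class II, also lay in it. Its level was 2840.67 and 2917.37 FPKM in the WT and 4615.26 and 4500.19 FPKM in the BtzR libraries (0.66 ± 0.32, limma adjusted p = 0.354). In the fit of the 4 ARH-77 libraries alone its limma adjusted p was 0.0244, and the change was under the fold threshold. The run from HNRNPAB to RNF130 on the same chromosome had 13 genes with a median of 0.45. It held the ER chaperone calnexin, CANX, at 258.17 and 242.36 FPKM in the WT and 399.01 and 387.41 FPKM in the BtzR libraries (0.65 ± 0.13, limma adjusted p = 0.00677).

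Lower expression was seen along chromosome 8, from COX6C to ST3GAL1. The 57 genes had a median log2-fold change of -0.57. In 52 of them both BtzR libraries were below both WT libraries, beside 29.3% of all tested genes. None was called, since the changes were under the fold threshold, but 28 were lower at an adjusted p under 0.05, where 2.39% of all tested genes were. That excess follows in part from choosing the run on the same values. EXT1, an enzyme of heparan sulfate synthesis, was at 10 and 10.06 FPKM in the WT and 6.05 and 5.06 FPKM in the BtzR libraries (-0.75 ± 0.13, limma adjusted p = 0.00232); it was chosen after its values were seen. SQLE, an enzyme of cholesterol synthesis, was at 139.8 and 228.74 FPKM in the WT and 109.34 and 110.48 FPKM in the BtzR libraries (-0.70 ± 0.17, limma adjusted p = 0.0231). A run on chromosome 4 from RAB33B to LSM6 had 16 genes with a median of -0.35. In 10 of them both BtzR libraries were below both WT libraries, beside 29.3% of all tested genes.

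**Figure D4:**
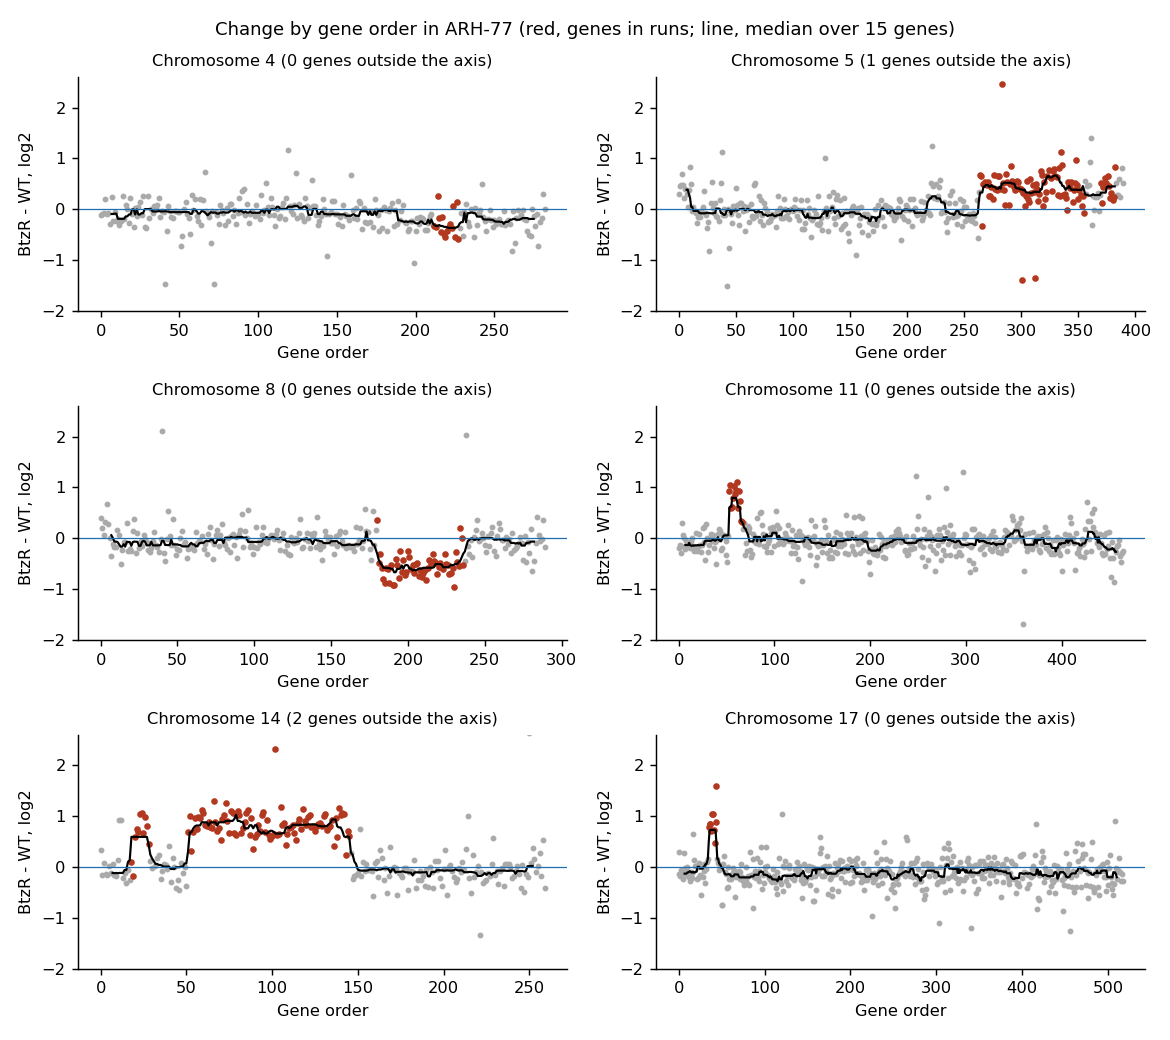
BtzR minus WT difference in ARH-77, on the log2(FPKM + 1) scale, for genes of at least 5 FPKM in their order along the 6 chromosomes with runs. Red points are genes in runs, grey points the other genes, and the black line is the median over 15 genes, which is highest over the 95 genes of chromosome 14 and lowest over the 57 genes of chromosome 8.

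The runs were set beside the same genes in the BtzR and WT cells of the 3 myeloma lines, which share no library with ARH-77. The median of the long run on chromosome 14 was 0.58 in AMO1, 0.28 in RPMI-8226 and 0.02 in L363. That of the long run on chromosome 5 was 0.56 in AMO1, 0.55 in RPMI-8226 and -0.03 in L363. That of the run on chromosome 17 was -0.56 in AMO1, 0.26 in RPMI-8226 and 0.01 in L363. The run on chromosome 8 had medians of 0.13, -0.02 and -0.06 in AMO1, RPMI-8226 and L363. The run from PRMT5 to PABPN1 had medians of 0.79, 0.45 and 0.23 in AMO1, RPMI-8226 and L363. PSMB5 in that run had log2-fold changes of 0.88, 1.70 and 1.73 in the same lines, so it was higher in BtzR cells of each line. Whether PSMB5 differed from its neighbours was not tested. The differences between lines were not tested for runs.

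**Figure D5:**
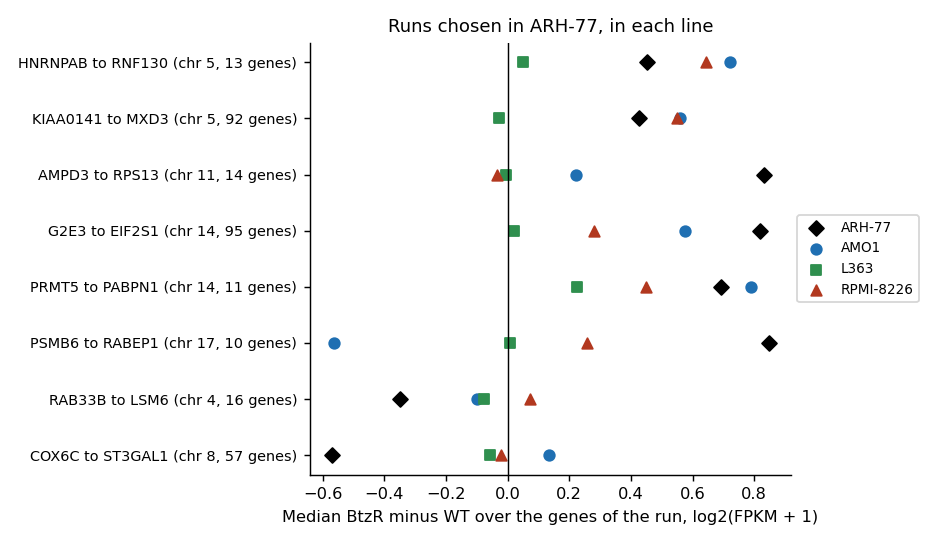
Median BtzR minus WT difference over the genes of each of the 8 runs found in ARH-77, on the log2(FPKM + 1) scale, in ARH-77 (black) and in AMO1, L363 and RPMI-8226. The runs were chosen on the ARH-77 values, and only the ARH-77 median lies below -0.3 in the runs of chromosomes 4 and 8.

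Few genes of stress defence and drug handling were called, where 1.07% of all tested genes were called higher and 0.702% lower. Of 20 tested cytosolic heat shock proteins, 1 was called lower and none higher. It was HSPA4L, a nucleotide exchange factor, at 33.38 and 34.26 FPKM in the WT and 15.57 and 15.99 FPKM in the BtzR libraries (-1.05 ± 0.23, limma adjusted p = 0.0121). Of 22 tested genes of the NRF2 and antioxidant response none was called, 18 had both BtzR libraries below both WT libraries (29.3% of all tested genes) and none had both above (16.9%). Of 28 tested ER folding genes and 30 tested ATF4 targets, none was called, and the medians were 0.05 and 0.09.

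ABCB1, the efflux pump MDR1, was listed at 0 in both WT libraries and at 0.02 FPKM in both BtzR libraries, and so was not tested. ABCG2, another efflux pump, was at 0.04 and 0.15 FPKM in the WT and 1.1 and 1.02 FPKM in the BtzR libraries (0.91 ± 0.13, limma adjusted p = 0.000367), under the fold threshold. ALDH1A1, a retinaldehyde dehydrogenase, was at 15.59 and 22.97 FPKM in the WT and 65.64 and 66.65 FPKM in the BtzR libraries (1.75 ± 0.36, limma adjusted p = 0.00659). ALDH1A1 was the 1 gene called higher of 16 tested for aldehyde and drug metabolism, beside 1.07% called higher and 0.702% called lower of all tested genes. The aldo-keto reductases AKR1C1 and AKR1C3, whose sequences are similar enough for reads to be shared, were the 2 called lower. Without WT replicate 2 neither was called, at -0.97 and -0.79 on the log2 scale, and AKR1C3 was at -1.90 without WT replicate 1.

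A list of 14 mostly surface genes was taken from the study, holding markers of resistance to proteasome inhibitors or lenalidomide and also CD99, GGT1, TOR1AIP2, SERINC3 and EVI2A, which the study does not present as such. None of the 12 tested was called, with a median log2-fold change of -0.04 and a largest absolute change of 0.59. MME, which encodes the study's increased marker CD10, was not among the 12 tested, so no change is given for it. The study found its resistance markers mainly as surface proteins of myeloma lines, whereas the values here are RNA of ARH-77. For CD151 in AMO1 BtzR cells it reports more surface protein but almost no change in RNA. For CD53, EVI2B and CD10, by contrast, it describes the surface levels as regulated through RNA. In patient tumours at relapse it reports lower RNA of CD53 and EVI2B and higher RNA of MME. It also reports less CD53 protein on plasma cells in biopsies at relapse. CD53, a tetraspanin, was at 154.39 and 181.71 FPKM in the WT and 160.31 and 165.06 FPKM in the BtzR libraries (-0.04 ± 0.26, limma adjusted p = 0.975). EVI2B was at 36.49 and 49.8 FPKM in the WT and 48.22 and 56.39 FPKM in the BtzR libraries (0.28 ± 0.24, limma adjusted p = 0.663). ITGB7, an integrin chain of plasma-cell homing, was at 91.01 and 115.83 FPKM in the WT and 83.4 and 117.32 FPKM in the BtzR libraries (-0.05 ± 0.36, limma adjusted p = 0.977). The groups overlapped in all 3.

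Whether the change in ARH-77 differed from that in myeloma was tested in limma as the ARH-77 change minus the mean change of the 3 BtzR myeloma lines. The difference was called for 485 genes (4.37% of those tested), 288 of them higher and 197 lower in ARH-77. Of the 119 genes called higher in ARH-77, 69 also had a difference called in that direction, and of the 78 called lower, 56 did. For CD53 the log2-fold change was -0.04 in ARH-77 and the difference from myeloma was 3.43 (limma adjusted p = 9.39e-07). CD53 had log2-fold changes of -6.34 in AMO1 and -4.18 in RPMI-8226 but 0.11 in L363 (limma adjusted p = 0.617), so the mean of the myeloma lines did not hold for each of them. DHRS2, which fell by 5.70 on the log2 scale in ARH-77, had log2-fold changes of -5.89 in AMO1, -0.54 in L363 and -0.50 in RPMI-8226. PCBD1, at -2.02 in ARH-77, had changes of 0.79, 1.30 and 0.97 in AMO1, L363 and RPMI-8226, opposite in direction in all 3.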

How the data were processed

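RNA was extracted from frozen pellets and sequenced on a BGISEQ-500 instrument at BGI. The authors deposited 1 table of FPKM values for 18305 genes in 20 libraries. The submitters' processing notes name HISAT2 2.0.4, Bowtie2 2.2.5 and RSEM 1.2.12. The genome build is not given in the sources used here. The values are not multiples of whole reads, so the depth is unknown and no counting interval or floor was computed. Summed FPKM was 457317 to 481011 in the 4 ARH-77 libraries. In the table, 25 gene symbols had turned into dates and were restored through the NCBI gene ID. Fold changes are on the log2(FPKM + 1) scale, which understates the change of low genes.

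Libraries were grouped by the line, drug and replicate number in their labels. A model with a mean for each of 10 groups was fitted to all 20 libraries with limma 3.58.1 in R 4.3.3, with library weights per cell line (0.402 for ARH-77) and a mean-variance trend, leaving 10 residual degrees of freedom. P-values were adjusted over the 11107 genes by the Benjamini-Hochberg method. An exact two-sided permutation test of 2 against 2 libraries cannot give a p below 0.33, so none was run. Tested on simulated data of 10926 genes, the fit recovered 200 of 200 genes changed by 2 on the log2 scale and called 0 unchanged genes. The simulated noise was independent between genes, with the same spread for all genes of a line. The changed genes were well above the fold threshold and at 5 FPKM or more. The simulation therefore checks that the fit runs as intended and does not give the error rate of the calls.

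The members and the 40 gene lists (972 of 1006 entries matched) were chosen with earlier results of these data known. The list of mitochondrial-genome genes matched no entry. Named genes were the 12 largest called rises and falls without overlap, up to 6 called members of each list or otherwise its 2 largest changes, all catalytic subunits and genes of the surface list taken from the study, the 8 largest differences from myeloma, and genes listed at 0 in both libraries of 1 group and at 1 FPKM or more in both of the other. XIST and Y-linked genes were not named. RefSeq gene order placed 11095 of the tested genes. The runs of neighbouring genes, their windows and the motif spellings were chosen after seeing the data. Python 3.11.15 was used for these steps.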

Additional observations from a re-analysis of the deposited data

Results flagged for a closer look

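The genes below were marked because their change in ARH-77 BtzR cells differed from the mean change of the 3 BtzR myeloma lines in limma's test of the difference. Values are that difference on the log2 scale. It was 4.33 for PLD4, 4.32 for EVI2B, 4.16 for CRIP1, 4.13 for KCNMB1, 4.04 for EVI2A, 3.76 for CD37, 3.45 for S100A4, 3.43 for CD53, 3.19 for ADAMDEC1 and 2.96 for ITGB7. PLD4 had log2-fold changes of 1.09 in AMO1, -1.36 in L363 and -4.79 in RPMI-8226. For EVI2B, CRIP1, EVI2A, CD37, S100A4, CD53 and ITGB7 the change within ARH-77 was not called. The mean over the myeloma lines hides L363, where the log2-fold changes were 0.00 for CRIP1, -0.02 for CD37, 0.13 for S100A4, 0.11 for CD53 and -0.03 for ITGB7, and lines were not compared with ARH-77 one by one.

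Smaller positive differences were 2.25 for FERMT2, 2.25 for JAKMIP2, 2.24 for MYL9, 2.23 for AIF1, 1.97 for SYNPO, 1.88 for IVL, 1.78 for CD33, 1.7 for KHDRBS3, 1.65 for ICAM3 and 1.33 for FAM171A1. Negative differences were -1.26 for CD99, -1.45 for TEKT4, -1.64 for TES, -1.89 for LIPH, -1.97 for TLR4, -2.04 for PMP2, -2.28 for FBN2, -2.42 for PLD5, -3.04 for PCBD1, -3.33 for GALNT17 and -3.39 for DHRS2. For CD33, ICAM3 and CD99 the change within ARH-77 was not called. The mean hides single lines here too. CD33 was at -0.17 in AMO1, 0.19 in L363 and -3.68 in RPMI-8226. TLR4, at -2.99 in ARH-77, was at -0.12 in AMO1, 0.00 in L363 and -2.94 in RPMI-8226. SYNPO, at 2.46 in ARH-77, was at 1.89 in AMO1, -0.48 in L363 and 0.05 in RPMI-8226. Genes listed at 0 in both libraries of a group were left out, and with 2 libraries a group no library could be tested as an outlier.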

How the results depend on the processing

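The counts of called genes were recomputed under 15 alternatives and the difference from myeloma under 13, since the fits of the ARH-77 libraries alone cannot give it. Leaving out 1 ARH-77 library at a time gave 57 to 144 genes called higher, 41 to 204 called lower and 264 to 682 with a called difference from myeloma, against 119, 78 and 485 with all libraries. A filter of 5 FPKM left 37 genes called lower, since fewer genes were tested, and a pseudocount of 0.1 FPKM gave 747 called differences. The other alternatives kept these counts within 1.5 times. With a pseudocount of 0.01 FPKM, 62 of the 119 and 52 of the 78 called genes were among those called. The 4 ARH-77 libraries alone gave 95 genes called higher and 59 called lower.

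The fit that blocked on replicate number gave 122 genes called higher, 79 lower and 498 called differences. In a fit of the 4 ARH-77 libraries with that block, added after seeing the data, they were 128 and 85. Same-numbered libraries deviated together with r = 0.236, but with 2 pairs and no label that ties them the numbers were not taken as pairing.

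A filter of 5 FPKM left out some named genes. Among 1628 pairs of a named gene and an alternative, 1500 kept direction and side of the threshold, 92 lost the call, 19 gained it and 17 changed sign. None of the genes that changed sign was called with all libraries. By quantile normalization CD151 was at 0.0171, GGT1 at 0.0297 and SERINC3 at 0.00196, and by rescaling to a common sum ICAM3 was at -0.0318. Leaving out 1 library gave -0.12 to 1.07 for BCL2A1, -0.20 to 0.14 for CD151, -0.28 to 0.18 for CD37, -0.159 to 0.0749 for CD53, -0.163 to 0.0734 for GGT1, -0.14 to 0.16 for ICAM3, -0.30 to 0.19 for ITGB7 and -0.26 to 0.13 for SERINC3.

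The run medians kept their direction under all 15 alternatives, at 0.77 to 0.89 for G2E3 to EIF2S1 and -0.63 to -0.50 for COX6C to ST3GAL1. The genes of each run were kept as chosen on these same libraries, so a change of direction was unlikely from the start. The ranges therefore give only the size of the shift and are no separate evidence for the runs. With windows of 25 genes 5 runs were found, with 41 genes 3, and with all tested genes 11. Those 11 included lower runs that were not found among genes of at least 5 FPKM. On chromosome 19 they ran from ZNF543 to ZNF671 (12 genes, median -0.85) and from ZNF566 to ZNF383 (11 genes, median -0.385). On chromosome 6 the run was from ASF1A to NCOA7 (12 genes, median -0.362). The cause of the shifts along runs was not tested. Depth is unknown, and precision rests on 2 libraries a group.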

Other observations

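Other lists gave few calls, where 1.07% of all tested genes were called higher and 0.702% lower. Of 25 tested proliferation genes none was called and 21 had both BtzR libraries below both WT libraries (29.3% of all tested genes), with a median log2-fold change of -0.28. Of 18 tested genes of RAS-MAPK output 1 was called higher, SPRY4, a feedback inhibitor of receptor signalling, and the median was 0.41. SPRY4 was at 0.89 and 0.57 FPKM in the WT and 2.52 and 2.55 FPKM in the BtzR libraries (1.04 ± 0.24, limma adjusted p = 0.0145). Without WT replicate 1 it was called, and without WT replicate 2 it was not.

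Of 44 tested interferon-stimulated genes 1 was called higher, beside 1.07% of all tested genes. It was OAS3, an antiviral sensor of double-stranded RNA, at 3.1 and 2.76 FPKM in the WT and 9.19 and 7.74 FPKM in the BtzR libraries (1.27 ± 0.13, limma adjusted p = 1.43e-05). CDKN2C, an inhibitor of the cell-cycle kinases CDK4 and CDK6, was at 2.71 and 5.23 FPKM in the WT and 10.29 and 12.16 FPKM in the BtzR libraries (1.34 ± 0.20, limma adjusted p = 0.000549). Without WT replicate 1 CDKN2C was at 0.97 and not called, beside 1.72 without WT replicate 2, and the fit of the 4 ARH-77 libraries gave a limma adjusted p of 0.0636. Of 20 tested HLA class II genes none was called, and 10 had both BtzR libraries above both WT libraries, beside 16.9% of all tested genes.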
